A study of Mus musculus with 6 samples.

Results

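The T cell receptor signalling machinery was followed as 40 genes, named by symbol and matched to their Ensembl identifiers in the GRCm38 mouse genome, out of the 39179 gene identifiers in each library. They cover the receptor complex with the co-receptor CD4 (5 genes), the proximal kinases (3), adaptors and relay enzymes (11), the calcium-NFAT arm (9) and negative regulators (12). All 40 passed the filter on low counts, which kept 14928 genes for testing. The libraries are polyA-selected RNA from cells that began as naive CD4+ spleen cells of wild-type C57BL/6 mice, 6 weeks of age. Both groups received the same 3 days of culture toward regulatory T cells (Tregs): anti-CD3 on the plate (2 µg/ml, with the unit's first letter unreadable in the labels), anti-CD28 (1 µg/ml), TGFβ1 (5 ng/ml) and IL-2 (40 ng/ml). The groups differed only in the added protein, which was Fc control in 3 libraries and DEL-1-Fc in 3. DEL-1 is a secreted protein that binds integrins, here fused to an antibody Fc part. Anti-CD3 engages the receptor directly in both groups, so every value below comes from stimulated cells. Whether the replicates are separate mice or cultures is not in the labels, so the p-values cover the spread between these libraries alone, which may be technical.

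As background, a T cell receptor has no kinase of its own: its CD3 and ζ chains carry tyrosines that Lck phosphorylates, and Zap70 then docks there and phosphorylates the adaptors Lat and Slp-76. That platform recruits phospholipase Cγ1, which splits a membrane lipid into diacylglycerol, the activator of RasGRP1 and PKCθ, and a messenger that empties calcium stores. Calcium entry through Orai1 activates the phosphatase calcineurin, which lets NFAT factors enter the nucleus, while phosphatases, ubiquitin ligases and diacylglycerol kinases limit each step. In Tregs the strength of this signal is known to affect whether Foxp3, the lineage factor, is induced and kept.

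Library totals ran from 33364166 counts in DEL-1-Fc replicate 1 to 61967687 in Fc replicate 2, and DEL-1-Fc replicate 1 also stood apart from the other DEL-1-Fc libraries on both leading principal components. On the first (44% of the variance), which separated the groups, it scored 47.7 against 14.3 and 12.8 for DEL-1-Fc replicates 2 and 3 and -27.5 to -22.7 for Fc. On the second (23.3%) it scored 27.9 against -28.7 and -23.6. Of the markers of CD4 T cells and Tregs, Foxp3 measured 316 to 414 CPM (counts scaled to the library total with TMM factors) in Fc and 465 to 584 CPM in DEL-1-Fc, and Il2ra 2273.1 to 2769.9 CPM over all libraries. In the edgeR test described below, 2 of these 5 markers were higher in DEL-1-Fc: Foxp3 (log2 fold change 0.54, adjusted p = 0.0166) and Cd28 (0.23, adjusted p = 0.0385). Markers of other cells except Ighm were low: the 2 CD8 T cell genes summed to 10.1 to 10.4 CPM in Fc against 11.9 to 12.8 CPM in DEL-1-Fc, 3 NK cell genes to at most 0.0911 CPM, 6 myeloid genes to at most 0.692 CPM and 4 dendritic cell genes to at most 0.495 CPM. Cd8a measured 2.28 to 2.52 CPM in Fc and 3.6 to 4.49 CPM in DEL-1-Fc, and was called higher in edgeR (log2 fold change 0.78, adjusted p = 0.00607). The γδ T cell gene Tcrg-C1 measured at most 0.422 CPM and the 5 erythroid and platelet genes summed to at most 0.183 CPM. Ncr1 of the NK cell genes, Siglech of the dendritic cell genes and 3 of the erythroid and platelet genes were at 0 in every library. The 4 B cell genes other than Ighm summed to 4.6 to 6.01 CPM in Fc against 5.65 to 6.92 CPM in DEL-1-Fc, whereas Ighm alone measured 360 to 381 CPM in Fc and 447 to 478 CPM in DEL-1-Fc. Ighm was also called higher in edgeR (log2 fold change 0.32, adjusted p = 0.0124). The part of these cells in the results was not tested. In bulk RNA, fewer cells of a type and less RNA per cell cannot be told apart.

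In edgeR's quasi-likelihood test with Benjamini-Hochberg adjustment over all tested genes, 5 members were higher in DEL-1-Fc (Grap2, Ppp3ca, Ptpn22, Dgka and Ubash3b), 2 were lower (Cblb and Ptpn6) and 33 did not pass at an adjusted p of 0.05. That is 17.5% of the members, where 12.6% of all tested genes passed (6.4% higher and 6.22% lower), and 13.4% of the 8512 tested genes whose mean CPM lay within the members' range. The median log2 fold change (DEL-1-Fc over Fc) was 0.04 for the members and 0.01 for all tested genes, and the median absolute log2 fold change was 0.16 for both. It was 0.12 for the tested genes within the members' range of mean CPM. Negative regulators held 5 of the 7 calls (41.7% of the 12), and the other 28 members held 2 (7.14%). The further list of pathway genes described below did not repeat this. There 7 of 26 negative regulators were called (26.9%), against 34.7% of all tested genes of that list and 10 of 18 of its adaptors and cytoskeleton genes (55.6%). Whether the negative regulators differ from the rest in this respect was not tested. Without Fc replicate 1, 2 or 3, the members that passed numbered 3, 3 and 2, when 5.95%, 6.4% and 6.32% of all tested genes passed. Without DEL-1-Fc replicate 1 they numbered 16, when 19.7% of all genes passed, without DEL-1-Fc replicate 2 they numbered 10 (11.4% of all), and without DEL-1-Fc replicate 3 they numbered 6 (8.56% of all).

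**Figure D1:**
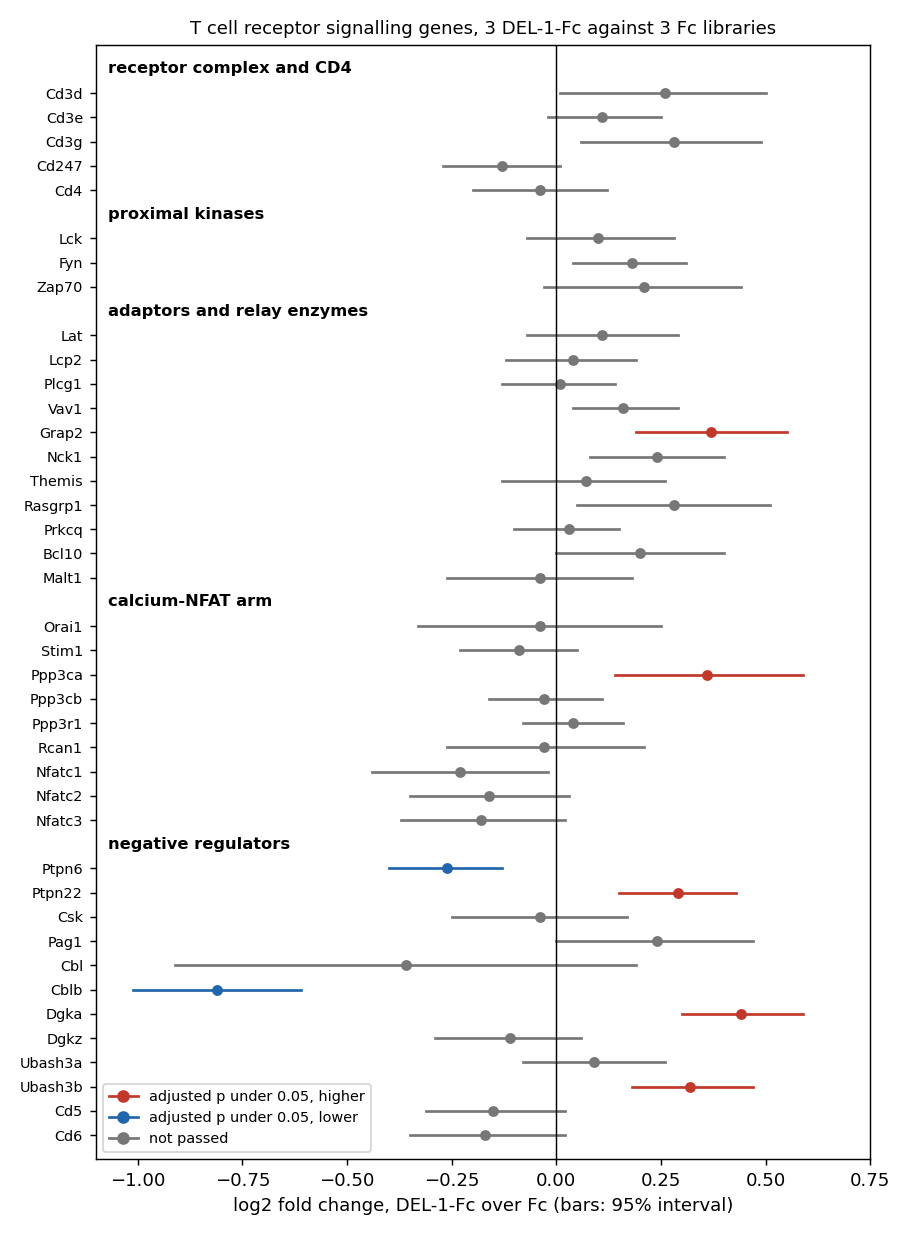
Log2 fold change of each of the 40 members, DEL-1-Fc over Fc, by arm, with unadjusted 95% intervals from edgeR's quasi-likelihood fit (n = 3 libraries a group). Red and blue mark the 5 higher and 2 lower members that passed, and Cblb at -0.81 lies farthest from 0.

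The receptor complex showed no gene past the test. Cd4, the co-receptor that brings Lck to the receptor, measured 681, 680 and 623 CPM in Fc against 664, 652 and 612 CPM in DEL-1-Fc. The groups overlapped, and its log2 fold change was -0.04 (95% interval -0.20 to 0.12, adjusted p = 0.752 in edgeR). The signalling chains that pair with the antigen-binding chains split by sign. Cd3e, the ε chain, measured 218, 218 and 210 CPM in Fc against 243, 231 and 225 CPM in DEL-1-Fc. Cd3g, the γ chain, measured 187, 186 and 189 CPM in Fc against 264, 204 and 213 CPM in DEL-1-Fc. Both chains were above every Fc library in all 3 DEL-1-Fc libraries, with log2 fold changes of 0.11 for Cd3e (adjusted p = 0.256 in edgeR) and 0.28 for Cd3g (adjusted p = 0.0935 in edgeR).

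Cd3d, the δ chain, measured 113, 111 and 127 CPM in Fc against 161, 118 and 140 CPM in DEL-1-Fc. DEL-1-Fc replicate 2 fell inside the Fc range, and the log2 fold change of 0.26 had an adjusted p of 0.173 in edgeR. Cd247, which encodes the ζ chain, measured 237, 248 and 235 CPM in Fc against 230, 212 and 216 CPM in DEL-1-Fc. All 3 DEL-1-Fc libraries were below the Fc libraries (log2 fold change -0.13, 95% interval -0.27 to 0.01, adjusted p = 0.205 in edgeR). The Cd247 values are uncertain, because another annotated gene covers up to 56.4% of its exon bases and Gm16565 on the same strand and Pou2f1 on the other overlap it. Of the 31-base words in its longest transcript, 85.41% also occur in transcripts of other genes. Separation of the groups of this kind held for 3 of the 5 receptor genes and for 34.8% of all tested genes. Several of these genes passed in edgeR with 1 library left out. Without DEL-1-Fc replicate 1, Cd3g (log2 fold change 0.16, adjusted p = 0.0343) and Cd247 (-0.17, adjusted p = 0.0328) passed, as did 19.7% of all tested genes. Without DEL-1-Fc replicate 2, Cd3g (0.35, adjusted p = 0.045) and Cd3d (0.36, adjusted p = 0.032) passed, as did 11.4% of all tested genes.

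Levels of different genes were compared as CPM per kilobase of summed exon length. That length counts every annotated exon (1815 bases for Cd3d, 3269 for Cd3g and 4080 for Cd3e), so an order between genes depends on it. By mean CPM in Fc the CD3 chains had the reverse of the order below (215 for Cd3e, 187 for Cd3g and 117 for Cd3d). Per kilobase, Cd4 stood at 164 ± 8.28 in Fc and 159 ± 6.73 in DEL-1-Fc (SD, n = 3 each). The CD3 chains lay close together in Fc, with Cd3d at 64.4 ± 4.74, Cd3g at 57.3 ± 0.422 and Cd3e at 52.7 ± 1.12 CPM per kilobase. In DEL-1-Fc the order was the same, at 77 ± 11.9 for Cd3d, 69.5 ± 9.89 for Cd3g and 57.1 ± 2.18 for Cd3e, where Cd3d and Cd3g overlapped within their SDs. Cd247 had the lowest level of the complex per kilobase, at 45.1 ± 1.27 in Fc and 41.1 ± 1.75 in DEL-1-Fc, subject to the overlap given above.

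All 3 proximal kinases had a fold change above 0 and none passed. Lck, the kinase that starts the cascade, measured 539, 525 and 547 CPM in Fc against 633, 533 and 565 CPM in DEL-1-Fc, and the groups overlapped (log2 fold change 0.10, 95% interval -0.07 to 0.28). Zap70, which docks on the phosphorylated chains, measured 222, 208 and 215 CPM in Fc against 294, 225 and 226 CPM in DEL-1-Fc. Its groups did not overlap, but DEL-1-Fc replicate 1 was far above the other 2, and the log2 fold change fell from 0.21 (adjusted p = 0.241 in edgeR) to 0.07 without that library. Fyn, a second kinase of the Lck family, measured 250, 255 and 246 CPM in Fc against 286, 292 and 271 CPM in DEL-1-Fc. All 3 DEL-1-Fc libraries lay above Fc (log2 fold change 0.18, 95% interval 0.04 to 0.31, adjusted p = 0.0906 in edgeR). With DEL-1-Fc replicate 1 left out Fyn passed (0.17, adjusted p = 0.0391), as did 19.7% of all tested genes. It did not pass when any other library was left out. Per kilobase in Fc, Lck at 183 ± 3.71 stood above Zap70 at 71.9 ± 2.47 and Fyn at 57.3 ± 1.01 CPM (SD, n = 3).

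Among the 11 adaptors and relay enzymes 1 passed (9.09%, against 12.6% of all tested genes). Grap2 encodes Gads, the bridge between Lat and Slp-76. It measured 96.1, 104 and 98.4 CPM in Fc against 116, 143 and 126 CPM in DEL-1-Fc. Every DEL-1-Fc library was above every Fc library, and the level was 1.29-fold higher (log2 fold change 0.37, SE 0.0809, adjusted p = 0.0185 in edgeR). This call was not kept when any 1 Fc library was left out (adjusted p = 0.104, 0.0552 and 0.084 for replicates 1, 2 and 3), nor when DEL-1-Fc replicate 3 was (adjusted p = 0.0517). The partners of Gads had values near 0: Lat, the membrane scaffold, had a log2 fold change of 0.11 (95% interval -0.07 to 0.29) and Lcp2, which encodes Slp-76, 0.04 (-0.12 to 0.19).

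Plcg1, which encodes phospholipase Cγ1, had a log2 fold change of 0.01 (95% interval -0.13 to 0.14), Prkcq, encoding PKCθ, 0.03 (-0.10 to 0.15), and Themis, an adaptor best known from thymic selection, 0.07 (-0.13 to 0.26). Vav1, an exchange factor for Rac, stood at 0.16 (adjusted p = 0.0955 in edgeR) and Nck1, an adaptor to the actin cytoskeleton, at 0.24 (adjusted p = 0.0607 in edgeR). In Vav1 and Nck1 all DEL-1-Fc libraries lay above Fc. Bcl10 and Malt1, partners upstream of NF-κB, had values of 0.20 and -0.04. Rasgrp1, the diacylglycerol-activated switch for Ras, measured 141, 146 and 136 CPM in Fc against 142, 193 and 177 CPM in DEL-1-Fc. DEL-1-Fc replicate 1 lay within the Fc range and the other 2 above it (log2 fold change 0.28, adjusted p = 0.118 in edgeR). Without DEL-1-Fc replicate 1, Rasgrp1 passed at 0.40 (adjusted p = 0.000678) and Nck1 at 0.29 (adjusted p = 0.00559), as did 19.7% of all tested genes. Neither passed when any other library was left out. Of this arm, 10 of 11 members had a log2 fold change above 0, as did 7678 of all 14928 tested genes.

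In the calcium-NFAT arm 1 of 9 members passed, against 12.6% of all tested genes. A log2 fold change below 0 was seen in 7 of the 9 and in 7250 of all 14928 tested genes. Of the 7, Orai1 (-0.04), Ppp3cb (-0.03) and Rcan1 (-0.03) lay close to 0. Ppp3ca, the α catalytic subunit of calcineurin, measured 19.8, 20.1 and 19.4 CPM in Fc against 28.7, 25.7 and 22 CPM in DEL-1-Fc. The groups did not overlap, and the level was 1.29-fold higher (log2 fold change 0.36, SE 0.0983, adjusted p = 0.0431 in edgeR). This was the weakest of the 7 calls: it was not kept when any 1 Fc library was left out (adjusted p = 0.148, 0.131 and 0.148 for replicates 1, 2 and 3), when DEL-1-Fc replicate 2 was (0.0772), with limma-voom (0.0512), without robust dispersion (0.0588) and with the replicate number as a block (0.0552). Ppp3cb, the β catalytic subunit, had a log2 fold change of -0.03 (95% interval -0.16 to 0.11) and Ppp3r1, the regulatory subunit, 0.04 (-0.08 to 0.16). Per kilobase Ppp3ca was the least abundant of these, at 1.98 ± 0.0343 CPM in Fc, against 15.2 ± 0.594 for Ppp3cb and 38.1 ± 0.483 for Ppp3r1 (SD, n = 3). Ppp3r1 shares 14.3% of its exon bases with Wdr92 on the same strand.

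The channel Orai1 measured 156, 160 and 149 CPM in Fc against 187, 132 and 134 CPM in DEL-1-Fc. DEL-1-Fc replicate 1 was above every other library and replicates 2 and 3 were below all Fc libraries. The log2 fold change was thus -0.04 with all libraries and -0.22 (adjusted p = 0.0096 in edgeR) without DEL-1-Fc replicate 1. In that fit 19.7% of all tested genes passed, and Orai1 did not pass when any other library was left out. Its store sensor Stim1 stood at -0.09 (95% interval -0.23 to 0.05). The 3 NFAT genes all had values below 0, at -0.23 for Nfatc1 (95% interval -0.44 to -0.02, adjusted p = 0.157 in edgeR), -0.16 for Nfatc2 (-0.35 to 0.03) and -0.18 for Nfatc3 (-0.37 to 0.02). Nfatc1, whose short isoform is induced by NFAT itself, measured 233, 239 and 212 CPM in Fc against 191, 220 and 173 CPM in DEL-1-Fc, with DEL-1-Fc replicate 2 inside the Fc range. Without that library Nfatc1 passed at -0.33 (adjusted p = 0.0357) and Nfatc2 at -0.26 (adjusted p = 0.0328), as did 11.4% of all tested genes. Neither passed when any other library was left out. Rcan1, a calcineurin inhibitor with a calcineurin-responsive isoform, was the lowest member at 10.3 CPM over all libraries, with a log2 fold change of -0.03 (95% interval -0.26 to 0.21).

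Negative regulators moved in opposite directions: 3 rose, 2 fell and 7 did not pass. The largest change of the 40 genes was the fall of Cblb, which encodes a ubiquitin ligase that tags proximal signalling proteins and holds T cells in check when CD28 is not engaged. Cblb measured 292, 303 and 280 CPM in Fc against 149, 188 and 162 CPM in DEL-1-Fc. The lowest Fc library was well above the highest DEL-1-Fc library, and the level was 1.75-fold lower in DEL-1-Fc (log2 fold change -0.81, SE 0.0893, adjusted p = 0.000637 in edgeR). Dgka, encoding the diacylglycerol kinase α that removes the activator of RasGRP1, measured 203, 220 and 204 CPM in Fc against 278, 295 and 279 CPM in DEL-1-Fc. It was 1.36-fold higher without overlap (log2 fold change 0.44, SE 0.0626, adjusted p = 0.00224 in edgeR).

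The annotation places Cblb (ENSMUSG00000022637) at chr16:52031225-52208048 on the plus strand and Dgka (ENSMUSG00000025357) at chr10:128720134-128744855 on the minus strand. Cblb and Dgka were the members that passed in all 16 alternative settings, with log2 fold changes between -0.91 and -0.73 for Cblb and between 0.42 and 0.48 for Dgka. Their promoters are printed because they carry the opposite changes; each is the 250 bases before the RefSeq start nearest to the annotated gene start (GRCm38.p6), 5′ to 3′ on the gene's strand, with capitals for a match to a searched motif.
Cblb, chr16:52031299-52031548, plus strand: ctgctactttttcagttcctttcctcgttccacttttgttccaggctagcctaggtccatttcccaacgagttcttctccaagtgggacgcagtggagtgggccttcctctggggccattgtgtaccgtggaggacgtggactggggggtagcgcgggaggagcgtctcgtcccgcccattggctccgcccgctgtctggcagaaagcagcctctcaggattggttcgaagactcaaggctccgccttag
Dgka, chr10:128745085-128745334, minus strand: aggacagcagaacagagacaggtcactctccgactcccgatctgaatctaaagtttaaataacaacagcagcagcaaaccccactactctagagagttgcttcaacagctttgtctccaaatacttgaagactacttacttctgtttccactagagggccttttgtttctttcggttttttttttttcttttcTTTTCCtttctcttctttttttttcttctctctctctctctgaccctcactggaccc
The search covered both strands for an NFAT core (GGAAAA, which also holds the GGAA core of ETS factors), a RUNX core (TGTGGT), an AP-1 site (TGANTCA) and a FOXO site (TGTTTAC). The Dgka window held 1 NFAT match, whose first base lies 57 bases before the start inside a pyrimidine-rich stretch, and the Cblb window held none of the 4 motifs. The windows also differ in composition, with 58.8% G and C for Cblb and 41.2% for Dgka. An NFAT match occurred in 7 of the 34 members with a RefSeq promoter, and in 20.4% of all 32851 RefSeq promoter windows. RUNX, AP-1 and FOXO matches occurred in 1, 0 and 3 of the 34, and in 14.0%, 6.7% and 3.2% of all windows. These matches are a description of letters in a short window. For the printed windows the RefSeq start used lies 324 bases (Cblb) and 229 bases (Dgka) from the annotated start. The Cblb window thus falls inside the annotated gene, and the Dgka start is 1 of 4 listed, so the matches depend on the start chosen. For some other members the RefSeq start used lies far from the annotated start (50889 bases for Grap2, 12301 for Dgkz and 3635 for Ubash3b).

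Ubash3b, encoding the phosphatase Sts-1 that acts on Zap70, measured 131, 120 and 123 CPM in Fc against 162, 159 and 147 CPM in DEL-1-Fc, 1.25-fold higher (log2 fold change 0.32, SE 0.0641, adjusted p = 0.0119 in edgeR). Ptpn22, a phosphatase that acts on Lck with the kinase Csk, measured 69.2, 73.1 and 65.9 CPM in Fc against 85.3, 86.7 and 82.2 CPM in DEL-1-Fc, 1.22-fold higher (0.29, SE 0.0626, adjusted p = 0.018 in edgeR). Ptpn6, encoding the phosphatase SHP-1, went the other way, from 432, 415 and 417 CPM in Fc to 351, 343 and 358 CPM in DEL-1-Fc, 1.2-fold lower (-0.26, SE 0.0591, adjusted p = 0.0203 in edgeR). In these 3 phosphatase genes the groups did not overlap. With 1 Fc library left out, 5.95% to 6.4% of all tested genes passed, against 12.6% with all libraries. Ubash3b was then not called without Fc replicate 2 or 3 (adjusted p = 0.0769 and 0.0703 in edgeR), nor Ptpn22 without Fc replicate 1 or 3 (0.0923 and 0.105). Ptpn6 was not called when any 1 of the 3 Fc libraries was left out (0.115, 0.0882 and 0.09). Over all fits with 1 library left out, log2 fold changes ran from 0.3 to 0.36 for Ubash3b, 0.25 to 0.33 for Ptpn22 and -0.28 to -0.25 for Ptpn6. By the annotation, Grap2 lies at chr15:80572594-80652854, Ppp3ca at chr3:136670124-136937727, Ptpn22 at chr3:103859795-103912247, Ubash3b at chr9:41011098-41161697 and Ptpn6 at chr6:124720707-124738714. Gm20531 on the other strand overlaps at most 7.0% of the exon bases of Ptpn6.

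**Figure D2:**
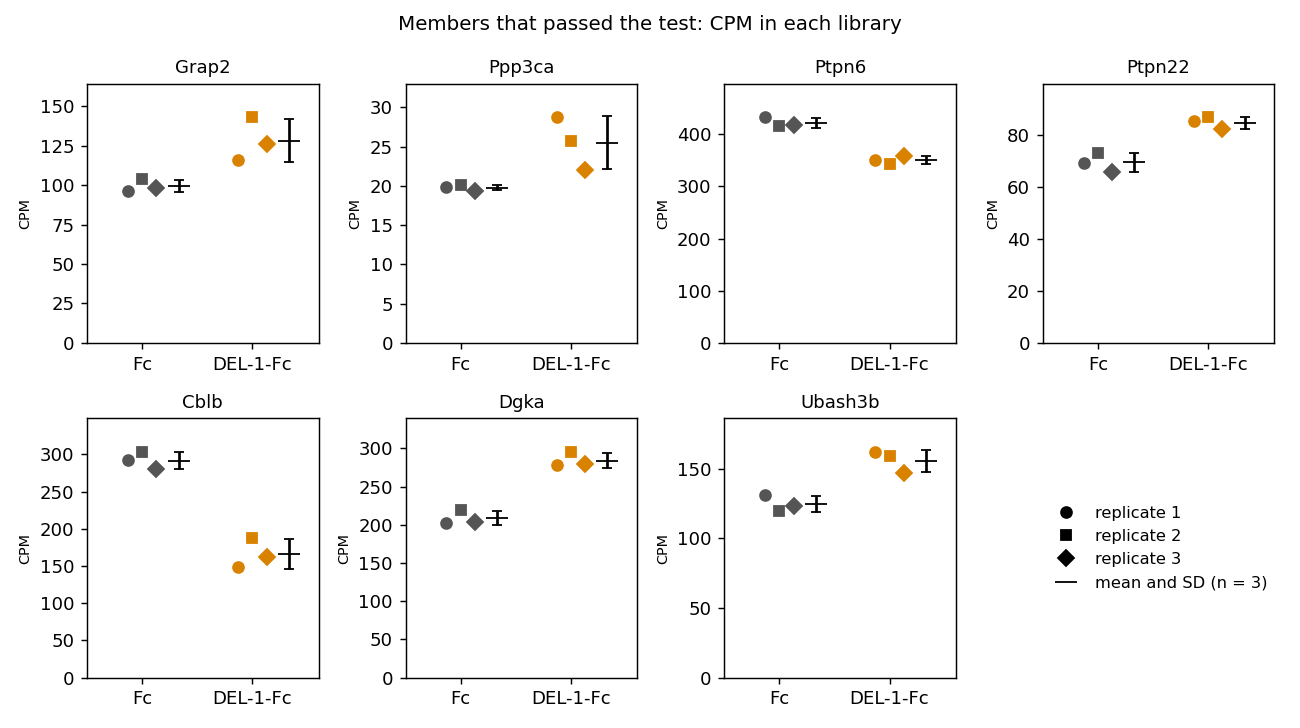
CPM of the 7 members that passed, in each of the 3 Fc and 3 DEL-1-Fc libraries, with the mean and SD beside each group (y axes start at 0). Grap2, Ppp3ca, Ptpn22, Dgka and Ubash3b lie higher in DEL-1-Fc and Ptpn6 and Cblb lower, with no overlap in any panel.

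The 7 other negative regulators did not pass. Cd5 and Cd6, paired surface receptors that dampen the receptor signal, were the most abundant members by CPM, with means over all libraries of 761 and 662. Cd5 measured 850, 784 and 765 CPM in Fc against 758, 698 and 711 CPM in DEL-1-Fc (log2 fold change -0.15, 95% interval -0.31 to 0.02), so that every DEL-1-Fc library was below Fc. Cd6 stood at -0.17 (-0.35 to 0.02) with overlapping groups. Csk, the kinase that silences Lck, had -0.04 (-0.25 to 0.17), and Pag1, the membrane anchor of Csk, 0.24 (adjusted p = 0.186 in edgeR). Dgkz, the ζ isoform of diacylglycerol kinase, had -0.11 (-0.29 to 0.06) and Ubash3a, the other Sts family gene, 0.09 (-0.08 to 0.26). Without DEL-1-Fc replicate 1, Pag1 (0.33, adjusted p = 0.0218), Dgkz (-0.18, adjusted p = 0.0433) and Cd6 (-0.23, adjusted p = 0.0268) passed in edgeR, as did 19.7% of all tested genes. None of these passed when any other library was left out.

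Cbl, the relative of Cblb, had the widest interval of the members that did not pass. It measured 64.8, 70.9 and 66.5 CPM in Fc against 35.2, 67.3 and 54.3 CPM in DEL-1-Fc, where the highest library was close to the Fc values and the lowest far below them (log2 fold change -0.36, 95% interval -0.91 to 0.19, adjusted p = 0.363 in edgeR). For 32 of the 33 members that did not pass, all except Cbl, the unadjusted 95% interval lay inside a 1.5-fold change either way, with a median half-width of 0.18 on the log2 scale. That interval excluded 0 in 7 of them (Cd3d, Cd3g, Fyn, Vav1, Nck1, Rasgrp1 and Nfatc1). The unadjusted p was under 0.05 in 14 of the 40 members (35%) and in 27% of all tested genes. Depth was ample for these genes, with counts from 371 for Rcan1 to 48232 for Cd5 in single libraries.

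Related members were also compared as a ratio of counts within each library, which does not depend on library scaling. For the 7 pairs an exact two-sided permutation test of 3 against 3 libraries cannot give a p below 0.1, so no ratio could pass. The Dgka to Dgkz ratio differed most: its log2 was -1.17, -1.0 and -1.08 in Fc against -0.69, -0.46 and -0.42 in DEL-1-Fc, so the ratio was 1.48-fold higher in DEL-1-Fc without overlap (exact permutation p = 0.1, adjusted p = 0.233). The log2 ratio of Ppp3ca to Ppp3cb was -2.71, -2.80 and -2.77 in Fc against -2.22, -2.39 and -2.52 in DEL-1-Fc, again without overlap (difference 0.38, exact permutation p = 0.1, adjusted p = 0.233). That of Ubash3a to Ubash3b was -0.07, 0.03 and -0.04 in Fc against -0.17, -0.34 and -0.27 in DEL-1-Fc (difference -0.23, exact permutation p = 0.1, adjusted p = 0.233). The 4 other ratios had overlapping groups, with differences of 0.40 for Cbl to Cblb, -0.08 for Lck to Fyn, -0.07 for Nfatc1 to Nfatc2 and 0.02 for Cd5 to Cd6. For Cbl to Cblb, DEL-1-Fc replicate 1 at -2.08 lay within the Fc range of -2.17 to -2.07, whereas replicates 2 and 3 stood at -1.48 and -1.58.

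**Figure D3:**
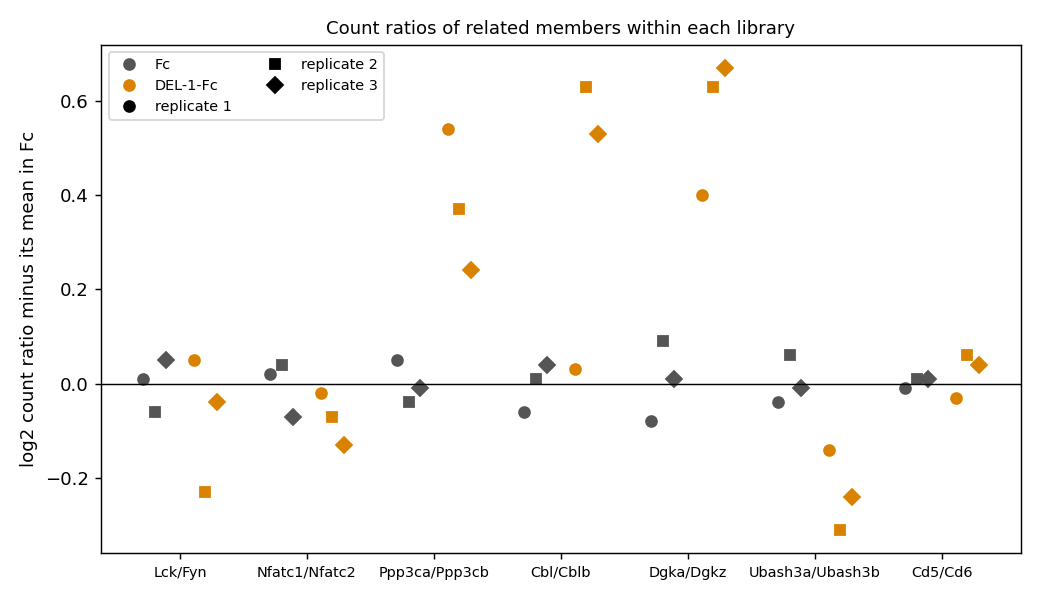
Log2 count ratio of each of 7 pairs of related members in every library, minus its mean in Fc (grey, Fc; orange, DEL-1-Fc; marker shape, replicate number). The groups are apart for Ppp3ca/Ppp3cb, Dgka/Dgkz and Ubash3a/Ubash3b, and for Cbl/Cblb only DEL-1-Fc replicate 1 falls among the Fc libraries.

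DEL-1-Fc replicate 1 was the library most often apart from its group, among the members as among all genes. In 22 of the 40 it was the DEL-1-Fc library apart from the other 2 (farther from its nearest neighbour on the log2 scale than those 2 from each other), against 10 for replicate 2 and 8 for replicate 3. The shares over all tested genes were 54.5%, 24.8% and 20.8%. Its log2 ratio to the mean of DEL-1-Fc replicates 2 and 3 was 0.49 for Orai1 and 0.38 for Zap70, and -0.79 for Cbl, -0.38 for Rasgrp1 and -0.35 for Malt1. Across the 40 members this log2 ratio had a Pearson r of -0.62 with the log2 of summed exon length (-0.61 without Cbl) and of 0.40 with the GC content of the longest transcript. Across the 14757 tested genes with both values r was -0.08 and 0.16. Genes of 1 library are not independent, so these r values describe that library only, and the part of length and GC content in the fold changes was not tested beyond 1 refit. With each library's trends with GC content and length removed, the 7 called members remained called and Fyn, Nck1, Rasgrp1 and Pag1 were added, when 17.8% of all genes in that fit were called. DESeq2 also kept the 7 and added Fyn and Nck1, when it called 16.3% of all genes.

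**Figure D4:**
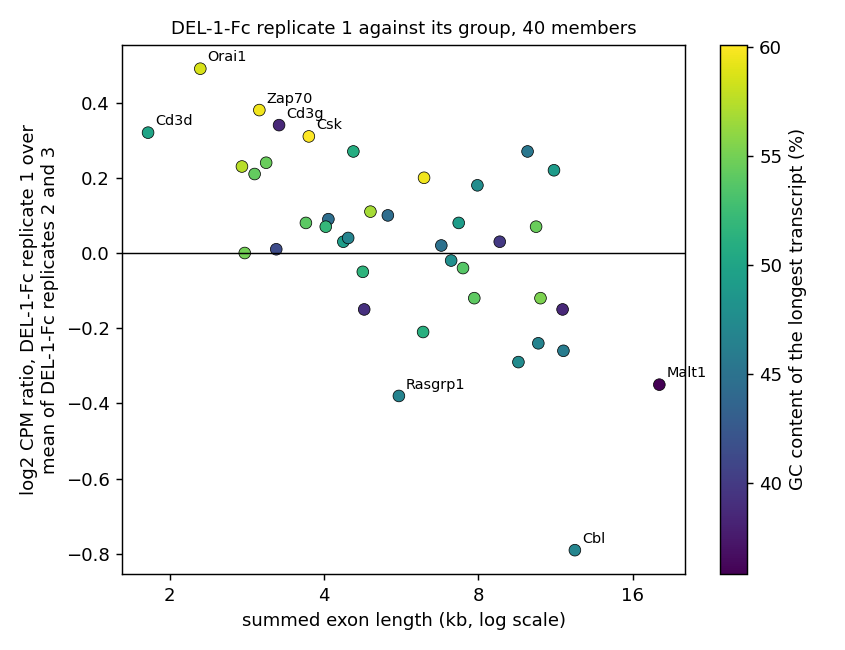
Log2 CPM ratio of DEL-1-Fc replicate 1 over the mean of DEL-1-Fc replicates 2 and 3 against summed exon length (log axis) for the 40 members, coloured by GC content in percent. Short members such as Orai1 (0.49) and Zap70 (0.38) lie above 0 and the long Cbl (-0.79) and Malt1 (-0.35) below. Some long members also lie above 0, such as Ppp3ca (0.27) and Ubash3a (0.22).

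A further 102 genes of the pathway, listed by role, were set beside the members, and 98 were tested. Of these, 20 were higher, 14 were lower and 64 did not pass (34.7% called, against 12.6% of all tested genes). The median log2 fold change was -0.00 and the median absolute log2 fold change 0.18. This list was chosen with earlier results of these data known. Its genes were also more abundant (median of mean CPM 87, against 18.6 for all tested genes). The 2 shares are therefore not a test of the pathway. Without Fc replicate 1, 2 or 3, the genes of this list that were called numbered 20, 20 and 21, when 5.95%, 6.4% and 6.32% of all tested genes passed. Txk, a Tec family kinase that acts on phospholipase Cγ1, measured 8.42, 9.11 and 8.81 CPM in Fc against 25.7, 22 and 20.3 CPM in DEL-1-Fc (2.58-fold, log2 fold change 1.37, SE 0.102). Rasgrp2, a relative of Rasgrp1 that activates Rap1, measured 2.94, 3.84 and 3.5 CPM in Fc against 9.9, 9.62 and 8.33 CPM in DEL-1-Fc (2.71-fold, 1.44, SE 0.133). Both genes started low and rose without overlap.

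Orai2, a channel relative of Orai1, rose 1.53-fold from 17.7 ± 1.11 to 27 ± 0.935 CPM, and Rasa3, a brake on Ras and Rap1, rose 1.59-fold from 61.3 ± 5.29 to 97.7 ± 8.31 CPM (SD, n = 3). Itpr1, the store calcium release channel, fell 1.66-fold from 84.4 ± 1.82 to 50.8 ± 8.33 CPM. Sla, encoding the adaptor SLAP that works with Cbl to lower receptor levels, fell 1.42-fold from 350 ± 4.63 to 246 ± 11.6 CPM. Sh3bp2, an adaptor, and Wipf1, a partner of the actin regulator WASP, fell 1.41-fold and 1.39-fold. Adjusted p-values of these 8 genes ran from 0.000109 (Txk) to 0.0036 (Wipf1) in edgeR, and each passed in all 16 alternative settings. Chosen after their values were seen, Ppp3cc, the γ catalytic subunit of calcineurin, rose 1.34-fold (log2 fold change 0.42, adjusted p = 0.0044 in edgeR) as Ppp3ca did, and Trbc2, a receptor β constant gene, rose 1.35-fold (0.43, adjusted p = 0.00264 in edgeR), as did its near-identical copy Trbc1, 1.31-fold (0.39, adjusted p = 0.0191 in edgeR). The split of reads between Trbc1 and Trbc2 is uncertain, and the Trbc1 call was not kept when any 1 Fc library (adjusted p = 0.104, 0.0865 and 0.052 for replicates 1, 2 and 3) or DEL-1-Fc replicate 3 (0.0697) was left out. Trac, the α constant gene, measured 414, 421 and 386 CPM in Fc against 519, 457 and 408 CPM in DEL-1-Fc and did not pass (0.18, adjusted p = 0.248 in edgeR).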

How the data were processed

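Each library has 1 deposited file of raw read counts by Ensembl gene. Per the submitters' processing notes the authors used STAR and HTSeq 0.6.0 with GRCm38 (mm10). No annotation release, strand setting or rule for multi-mapping reads is stated there, so reads of overlapping genes are uncertain (13 members have some exon overlap, 10 of them on the other strand). In 7 members over 5% of the 31-base words of the longest transcript occur in transcripts of other genes. These are Cd247, Lcp2, Plcg1, Prkcq, Ppp3r1, Ptpn6 and Ubash3a. Of 39179 identifiers, 37693 matched GENCODE M21 (GRCm38), which gave symbols, exon lengths and GC content.

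The test was edgeR 4.0.16 (R 4.3.3). Genes were kept by filterByExpr with a minimum count of 10 and a minimum total of 15. The fit used TMM, quasi-likelihood with robust dispersion, Benjamini-Hochberg over 14928 genes, and calls at 0.05. SEs were obtained as |log2 fold change| over √F. Intervals are not adjusted for the number of genes. The common biological coefficient of variation was 14.4%. Replicates differed beyond counting noise (chi-square per degree of freedom at least 19.9). Log2 ratios added 0.5 to both counts and were tested with scipy 1.17.1. The log2 ratio of DEL-1-Fc replicate 1 to the other DEL-1-Fc libraries added 0.01 CPM. The code was tested on simulated counts of 14928 genes, of which 67, 67 and 66 changed by a log2 of 0.5, 1 and 2. It recovered 44.8%, 92.5% and 98.5% of them, and 6.55% of its calls were false.

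Alternatives were DESeq2 1.42.0, limma-voom (limma 3.58.1), RLE, upper-quartile or no factors, no filter or 5 CPM in 3 libraries, no robust dispersion, a replicate block, removal of GC and length trends (lowess span 0.3), each library left out, and 5 added to the counts in ratios. The members and lists were chosen with earlier results of these data known. Values in every library are given for members that passed, the receptor complex and the kinases, and for other members singled out after their values were seen. Of the other pathway genes, up to 4 a direction with the smallest p were named. Promoters are from RefSeq (GRCm38.p6), and 34 of the 40 members matched.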

Additional observations from a re-analysis of the deposited data

How the results depend on the processing

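Over the settings that leave out 1 library, the genes called numbered 901 to 3003, the members called 1 to 10 higher and 1 to 6 lower, and the other pathway genes 12 to 26 higher and 7 to 19 lower. By arm, calls then ranged from 0 to 2 in the receptor complex, 0 to 1 in the kinases, 0 to 3 in the adaptors, 0 to 2 in the calcium-NFAT arm and 2 to 8 in the negative regulators. With GC and length trends removed, 2628 of 14757 genes were called, against 1884 of 14928 in the reported fit, and 9 members were higher, with 1 kinase and 3 adaptors called. DESeq2 called 2429 genes, 1 kinase and 2 adaptors, and library sizes alone 1875 genes and 2 adaptors. The calcium-NFAT arm had 0 calls with limma-voom, without robust dispersion and with the replicate block; the cause was not tested. Same-numbered libraries of the groups deviated together only weakly (r = 0.0163, 0.0885 and 0.0425), and the other r values ran from -0.0913 to 0.0382. DEL-1-Fc replicates 2 and 3 correlated best with the Fc library of the same number, and DEL-1-Fc replicate 1 with Fc replicate 3. These values cannot settle whether the libraries are paired. The labels state no pairing, so the numbers were not taken as pairs. With the replicate block 1510 genes and 6 members were called, Ppp3ca being the member lost. Signs changed only in members that never passed in that direction: Plcg1 without a filter (-0.0011), Malt1 and Ppp3cb with GC and length trends removed (0.07 and 0.06), and Rcan1 with library sizes alone (0.00064). With 1 library left out, log2 fold changes crossed 0 for Plcg1 (-0.02 to 0.05), Themis (-0.01 to 0.12), Malt1 (-0.12 to 0.07), Orai1 (-0.22 to 0.05), Ppp3cb (-0.05 to 0.0031), Rcan1 (-0.11 to 0.05) and Csk (-0.15 to 0.04). The 7 ratio differences moved by no more than the larger of their 2 group SDs in the alternatives run, with ranges over the libraries left out of 0.29 to 0.58 for Cbl to Cblb, 0.3 to 0.46 for Ppp3ca to Ppp3cb and -0.14 to 0.0 for Lck to Fyn. With 3 libraries a group, the edgeR p-values rest on the spread between libraries, estimated for each gene with information from all tested genes.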
